A study of Mus musculus with 6 samples.

Results

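The genes described here are 36 genes of the tricarboxylic acid (TCA) cycle, of pyruvate and citrate metabolism and of itaconate synthesis, in J774A.1, a macrophage-like cell line from BALB/c mice. They were taken by symbol from the study's table of array values, and where several array features carried 1 symbol the brightest was used. Of the 36 genes, 35 had a feature of their own among 22180 genes in all; Mpc2 was not analysed here. The series holds 6 Affymetrix whole-transcript arrays of total RNA. NPFF arrays 1 to 3 came from cultures given neuropeptide FF, an amidated RF-amide peptide, at 1 nM in phosphate-buffered saline (PBS) for 18 h. Control arrays 1 to 3 came from cultures given the PBS vehicle for 18 h, although the sample titles call them non-treated. The medium of both groups was RPMI-1640, supplemented with 10% fetal calf serum, and no genetic change is named for either. The comparison addressed which of these transcripts differed after the peptide. All cells derive from 1 transformed line. The labels name 3 biological replicates a group without saying how they were cultured, so the errors measure the spread between these samples, and in bulk RNA a lower level in each cell and fewer expressing cells cannot be told apart.

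The TCA cycle oxidises acetyl groups to carbon dioxide in the mitochondrial matrix and passes the electrons to the respiratory chain. Pyruvate enters through the mitochondrial pyruvate carrier and is turned into acetyl-CoA by the pyruvate dehydrogenase complex, which kinases switch off and phosphatases switch on. In activated macrophages the cycle is known to be broken at some of its steps, and citrate is drawn off for fatty acid synthesis or, after conversion to cis-aconitate, for itaconate, an antimicrobial and signalling metabolite made by the enzyme encoded by Acod1. Values below are quantile-normalized log2 intensities, where a step of 1 is a doubling of the signal. Differences are NPFF minus control on that scale, with the standard error (SE) of limma's moderated fit over all 22180 genes; the standard deviation (SD) is that of a group's 3 arrays.

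The arrays were unequal in the control group, and most differences below are larger against control 1 than against the other controls. Departures from the average of the remaining arrays had an SD, across genes, of 0.37 in control 1, 0.21 in control 2 and 0.11 to 0.13 in the other 4 arrays. As deposited, the median of control 1 was 6.38, where the other arrays had 6.24 to 6.29, and its interquartile range was 2.04, where theirs were 2.31 to 2.41. The 10 mitochondrially encoded genes averaged 13.00 to 13.03 in the NPFF arrays, 13.22 in control 1, 12.89 in control 2 and 13.03 in control 3. The 11 macrophage markers examined, among them Cd68, Lyz2, Ptprc and Spi1, all had a signal above that of the median gene and averaged 10.50 to 10.59 in the NPFF arrays, 10.28 in control 1 and 10.58 to 10.61 in controls 2 and 3. Of 19 measured markers of fibroblasts, epithelium, endothelium and lymphocytes, 4 had a signal above the median gene, and each of these lists averaged between 5.60 and 6.17 on every array.

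As a set, the 35 genes were on average higher in NPFF, and the excess lay in the comparison with control 1. Of the 35, 26 had a difference above 0 and 9 below, with a median of 0.13 and a range of -0.25 to 0.31. Over all genes 51.7% were above 0, with a median of 0.00. Taking the mean of the 3 NPFF arrays against each control in turn, which shares the NPFF arrays between comparisons, the median over the 35 genes was 0.35 against control 1, -0.05 against control 2 and -0.01 against control 3. The medians over all genes were 0.07, -0.04 and -0.00 in the same comparisons. The number of the 35 genes that were higher in NPFF was 27 (77.1%) against control 1, 14 (40%) against control 2 and 15 (42.9%) against control 3. Of all genes, 62.6%, 35.8% and 48% were higher in the same comparisons.

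The same split held array by array. Against control 1, the median over the 35 genes was 0.31 for NPFF 1, 0.39 for NPFF 2 and 0.28 for NPFF 3. Against control 2 it was -0.04, -0.03 and -0.04 for NPFF 1, 2 and 3, and against control 3 it was 0.02, 0.01 and -0.04. The mean level over the 35 genes was 9.52 in NPFF 1, 9.52 in NPFF 2 and 9.46 in NPFF 3, against 9.22 in control 1, 9.54 in control 2 and 9.51 in control 3. The NPFF arrays thus lay above control 1 and below control 2, and the groups overlapped. Control 1 was the lowest of the 6 arrays in 24 of the 35 genes (68.6%), against 48.8% of all genes. It was the highest in 6 (17.1%), against 24% of all genes. The SD was larger among controls than among NPFF arrays in 30 of the 35 genes (85.7%), against 80.4% of all genes, with median SDs of 0.08 in NPFF and 0.20 in control.

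**Figure D1:**
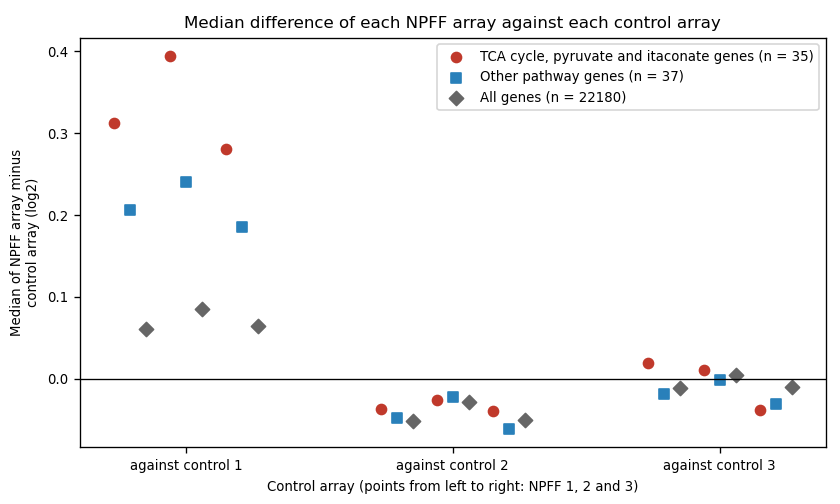
Median over genes (y axis, log2) of each NPFF array minus each control array (x axis), for the 35 measured TCA cycle, pyruvate and itaconate genes (circles), 37 other genes of the pathway (squares) and all 22180 genes (diamonds). Against control 1 the circles lie between 0.28 and 0.39, and against controls 2 and 3 between -0.04 and 0.02.

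The features of these genes were mostly bright, with a median percentile of signal of 91.4 and only Pcx below the median gene. Among all 2218 genes above the 90th percentile of signal, 60.3% were higher in NPFF and the median difference was 0.03. Against control 1 alone that median was 0.12. Of the 35 genes, 21 lie above that percentile, and 19 of them were higher, with a median of 0.15 over the 3 controls and 0.45 against control 1. The part of signal strength and of control 1 in the set's median beyond these values was not tested. By limma, 0 of the 35 genes had an adjusted p under 0.05 (Benjamini-Hochberg over all genes), as did 0% of all genes, and the smallest adjusted p among the 35 was 0.9996. At an unadjusted p under 0.05 there was 1 of the 35 genes, against 2.51% of all genes. That gene, Me1, was lower in NPFF, as were 1.67% of all genes at this p, and 0 of the 35 were higher, against 0.834% of all genes.

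**Figure D2:**
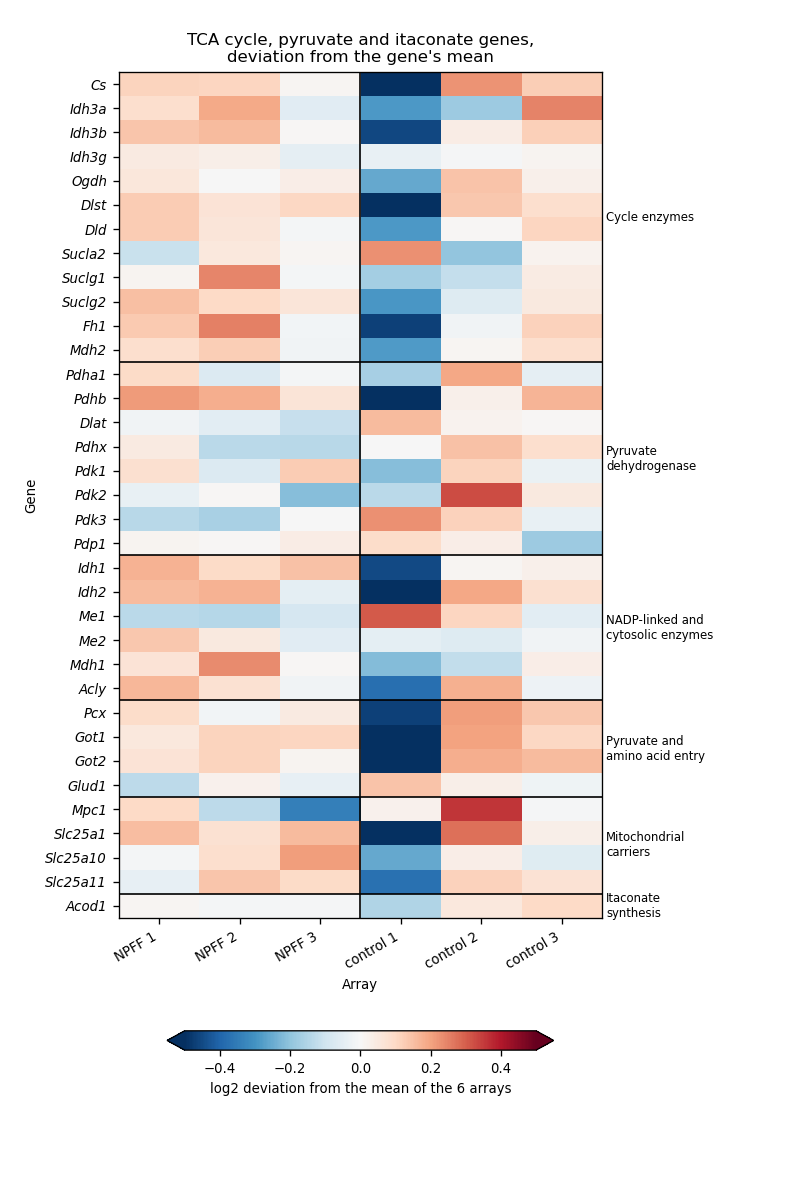
Log2 deviation of each of the 35 genes (rows, grouped by role) from its mean over the 6 arrays (columns, NPFF left of control); red is above and blue below that mean, and deviations beyond 0.5 share the end colours. Control 1 is the lowest array in 24 rows and the highest in 6, among them Me1, Pdk3 and Sucla2.

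In 4 of the 35 genes the NPFF and control values were apart. NPFF was higher in 2 of them, Suclg2 and Idh1 (3.67% of all genes were apart in this direction), and lower in 2, Me1 and Dlat (4.92% of all genes). Together these are 11.4% of the 35 genes, and 8.58% of all genes were apart.

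Idh1 encodes the cytosolic isocitrate dehydrogenase, which makes 2-oxoglutarate and NADPH. It stood at 10.30, 10.22 and 10.27 in NPFF arrays 1 to 3, against 9.67, 10.13 and 10.15 in controls 1 to 3. All NPFF values lay above all control values, with controls 2 and 3 close below and control 1 well apart. The difference was 0.28 (SE 0.14, 95% interval -0.05 to 0.60), or 1.21-fold, and it was 0.12 without control 1. Suclg2, the GTP-forming subunit of succinyl-CoA ligase, stood at 9.40, 9.35 and 9.31 in NPFF, against 8.95, 9.18 and 9.29 in control. The lowest NPFF array was just above control 3. The difference was 0.21 (SE 0.10, 95% interval -0.03 to 0.44), and 0.11 without control 1. A second, dim feature of Suclg2 differed by 0.04 (SE 0.08). With the mean of both features the difference was 0.12 and the groups overlapped. With features averaged for every gene, 3 of the 35 genes were apart, against 8.48% of all genes.

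Me1, the cytosolic malic enzyme that turns malate into pyruvate and yields NADPH, stood at 7.88, 7.88 and 7.94 in NPFF, against 8.33, 8.13 and 7.97 in control. The NPFF values were close together and below every control, with control 3 nearest and control 1 farthest. The difference was -0.24 (SE 0.10, 95% interval -0.48 to -0.00; unadjusted p = 0.0484 and adjusted p = 0.9996 by limma), a ratio of 0.846. Without control 1 it was -0.15, and against control 3 alone -0.07. Dlat, the acetyltransferase core of the pyruvate dehydrogenase complex, stood at 8.92, 8.88 and 8.82 in NPFF, against 9.09, 8.95 and 8.94 in control. NPFF 1 lay just under the lower controls. The difference was -0.12 (SE 0.07, 95% interval -0.29 to 0.05), and -0.07 without control 1.

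**Figure D3:**
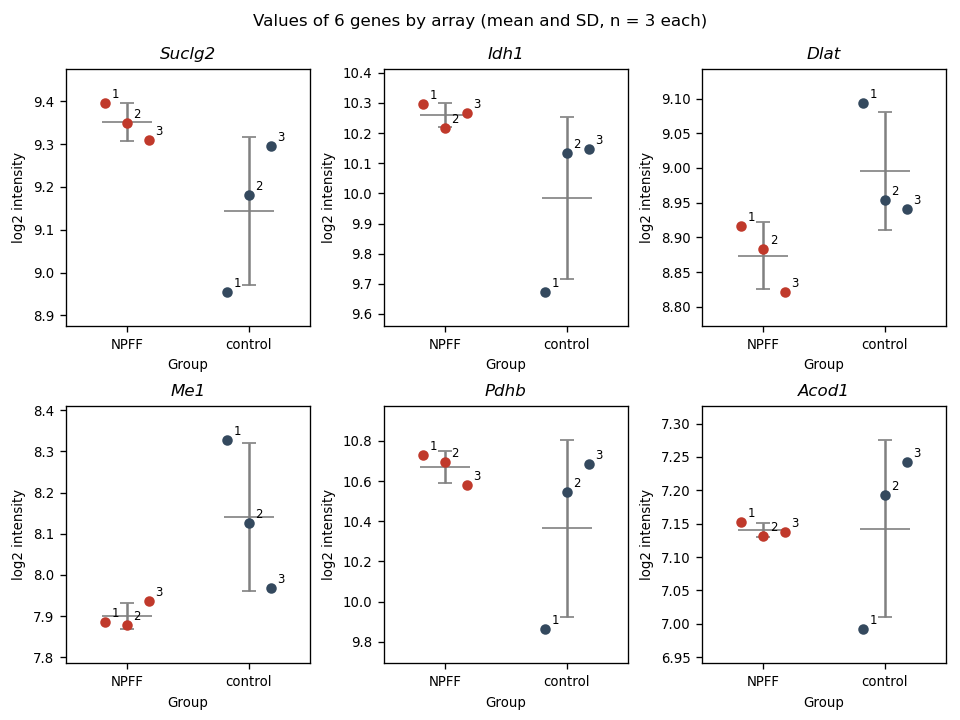
Log2 intensity (y axis) of 6 genes in each array, NPFF left of control, with array numbers beside the points and the mean and SD (n = 3 each) in grey. Suclg2 and Idh1 are higher and Dlat and Me1 lower in all NPFF arrays than in all controls; Pdhb and Acod1 overlap, with control 1 lowest in both.

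These 4 genes were chosen because their groups did not overlap, as also held for 8.58% of all genes. Acod1 was chosen for the itaconate branch. The sequences before the starts of these genes are shown. They come from RefSeq on GRCm38.p6 and run 5′ to 3′ on the gene's strand, from 150 bases before the annotated start through the first 10 bases from it. Capitals mark a match to 1 of 6 motifs searched on both strands. The windows are chr6:95718837-95718996 on the minus strand for Suclg2, chr1:65186470-65186629 on the minus strand for Idh1, chr9:86695905-86696064 on the minus strand for Me1, chr9:50659771-50659930 on the minus strand for Dlat, and chr14:103046862-103047021 on the plus strand for Acod1.
Suclg2: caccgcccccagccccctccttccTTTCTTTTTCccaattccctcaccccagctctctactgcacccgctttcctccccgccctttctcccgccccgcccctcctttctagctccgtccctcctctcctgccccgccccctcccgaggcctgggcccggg
Idh1: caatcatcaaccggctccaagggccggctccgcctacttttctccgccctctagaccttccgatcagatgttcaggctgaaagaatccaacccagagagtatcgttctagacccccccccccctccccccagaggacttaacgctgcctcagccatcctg
Me1: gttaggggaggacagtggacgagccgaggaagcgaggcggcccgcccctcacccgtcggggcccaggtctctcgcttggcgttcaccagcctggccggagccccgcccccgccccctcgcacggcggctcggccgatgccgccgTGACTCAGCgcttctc
Dlat: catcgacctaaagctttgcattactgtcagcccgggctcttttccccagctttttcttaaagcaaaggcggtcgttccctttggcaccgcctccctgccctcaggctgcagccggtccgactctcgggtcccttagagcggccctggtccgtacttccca
Acod1: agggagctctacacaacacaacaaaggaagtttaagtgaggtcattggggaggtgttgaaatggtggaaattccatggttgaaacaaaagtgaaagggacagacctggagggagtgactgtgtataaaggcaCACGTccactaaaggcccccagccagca

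The capitals before Me1 match TGACNNNGC, the antioxidant response element read by the stress factor NRF2, and lie across the start; they also contain an AP-1 site. Motifs were counted in a 300-base window, from 250 bases before to 50 after a start. This motif was present in 7 of 33 of the listed genes, against 14.0% of 27025 genes. The 33 are the listed genes with such a sequence, leaving out chromosome 18, where Me2 lies. The 27025 genes were not filtered by chromosome. The capitals before Suclg2 match the reverse complement of GAAA, any 2 bases and GAAA again, a site of interferon regulatory factors, present in 1 of the 33 and in 3.99% of all genes. Those before Acod1 match the reverse complement of ACGTG, the core of the hypoxia response element, 13 bases from the start. It was present in 11 of the 33 and in 21.8% of all genes. The motif of nuclear respiratory factor 1, GCGCA, any base and GCGC, was present in 2 of the 33, Dld and Sucla2, and in 5.19% of all genes. Neither TCAAGGTCA of the estrogen-related receptors nor TCACNCCAC of the sterol regulatory element-binding proteins was found in the 33, where 0.466% and 1.44% of all genes hold them. The windows of Idh1 and Dlat held none of the 6 motifs. Me1 and Idh1 each have 2 annotated starts, of which 1 is shown. The other window of Me1, chr9:86687228-86687527, held an ACGTG match on the opposite strand, which places Me1 among the 11 genes. These are matches of letters and say nothing of binding.

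Among the 12 enzymes of the cycle itself, 11 had a difference above 0, with a median of 0.15, a range of -0.03 to 0.25 and no gene past the threshold. The median was 0.35 against control 1, 0.06 against control 2 and -0.01 against control 3. Cs, citrate synthase, which joins acetyl-CoA to oxaloacetate, stood at 11.21, 11.20 and 11.11 in NPFF, against 10.52, 11.32 and 11.22 in control. Only control 1 was low, and controls 2 and 3 were above all NPFF arrays. The difference was 0.15 (SE 0.21, 95% interval -0.34 to 0.65), and -0.10 without control 1.

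Idh3a, Idh3b and Idh3g encode the subunits of the NAD-linked isocitrate dehydrogenase. Idh3a, the catalytic subunit, stood at 9.87, 9.97 and 9.72 in NPFF, against 9.50, 9.60 and 10.03 in control, with control 3 the highest of all arrays. The difference was 0.15 (SE 0.15); it was 0.36 and 0.25 against controls 1 and 2 and -0.18 against control 3. Idh3b differed by 0.20 (SE 0.16), and by 0.02 without control 1. Idh3g was the least variable member of the complex, at 11.54, 11.52 and 11.45 in NPFF, against 11.46, 11.49 and 11.51 in control. Its difference was 0.02 (SE 0.06, 95% interval -0.13 to 0.16).

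The 2-oxoglutarate dehydrogenase complex is built from Ogdh, Dlst and Dld, of which Dld also serves pyruvate dehydrogenase. Ogdh stood at 9.86, 9.80 and 9.84 in NPFF, against 9.55, 9.94 and 9.83 in control, so that the NPFF arrays lay between control 1 and control 2. The difference was 0.06 (SE 0.11, 95% interval -0.20 to 0.32), and -0.05 without control 1. Dlst differed by 0.20 (SE 0.17) and Dld by 0.12 (SE 0.11), and without control 1 by -0.01 and 0.00.

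Of the succinyl-CoA ligase subunits, Suclg1, which is shared by both forms of the enzyme, stood at 7.50, 7.73 and 7.48 in NPFF, against 7.32, 7.37 and 7.53 in control. Control 3 lay within the NPFF values. The difference was 0.16 (SE 0.10), and 0.08 without NPFF 2. Sucla2, the ATP-forming subunit, was the only cycle enzyme with a difference below 0, at -0.03 (SE 0.12), and control 1 was its highest array at 8.97. Without control 1 its difference was 0.08. Fh1, the fumarase, had the largest difference among the cycle enzymes, 0.25 (SE 0.16), with 9.69, 9.81 and 9.54 in NPFF, against 9.09, 9.54 and 9.67 in control; without control 1 it was 0.08. Mdh2, the mitochondrial malate dehydrogenase, differed by 0.13 (SE 0.11), and by 0.01 without control 1.

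The pyruvate dehydrogenase genes were divided, 4 above and 4 below 0, with a median of -0.06, or -0.01 against control 1, -0.13 against control 2 and -0.04 against control 3. Without control 2 the median was 0.01. Pdhb, the beta subunit of the complex's decarboxylase, had the largest difference of the 35 genes, 0.31 (SE 0.21, 95% interval -0.20 to 0.81). It stood at 10.73, 10.70 and 10.58 in NPFF, against 9.86, 10.54 and 10.69 in control. Control 1 was low, and control 3 lay within the NPFF values. Without control 1 the difference was 0.06. Pdha1, the alpha subunit of the same enzyme, stood at 8.63, 8.47 and 8.52 in NPFF, against 8.37, 8.73 and 8.49 in control, a difference of 0.01 (SE 0.11, 95% interval -0.24 to 0.27). Pdhx, which anchors Dld to the complex, differed by -0.15 (SE 0.08). Its highest NPFF array, 7.83, was above control 1 at 7.78, and controls 2 and 3 were above all NPFF arrays.

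The kinases that switch the complex off differed in sign. Pdk1, a hypoxia-responsive kinase, stood at 7.79, 7.64 and 7.84 in NPFF, against 7.50, 7.82 and 7.68 in control, a difference of 0.09 (SE 0.10), and 0.01 without control 1. A second feature of Pdk1, at percentile 1.61 of signal among all features, differed by 0.0079 (SE 0.050), and the mean of both by 0.049. Pdk2 differed by -0.16 (SE 0.13), and by -0.04 without control 2, its highest array at 7.53. Pdk3 stood at 8.90, 8.88 and 9.04 in NPFF, against 9.27, 9.16 and 9.00 in control, so that NPFF 3 lay above control 3 and the groups overlapped. Its difference was -0.20 (SE 0.09, 95% interval -0.42 to 0.01), between -0.27 and -0.14 with single arrays left out. The phosphatase Pdp1, which switches the complex on, differed by 0.04 (SE 0.09), and by -0.04 without control 3.

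Among the 6 NADP-linked and cytosolic enzymes, 5 were above 0, with a median of 0.17, or 0.39 against control 1, 0.00 against control 2 and 0.07 against control 3. Besides Idh1 and Me1, described above, Mdh1, the cytosolic malate dehydrogenase of the malate-aspartate shuttle, stood at 9.56, 9.73 and 9.50 in NPFF, against 9.27, 9.37 and 9.52 in control. NPFF 3 lay below control 3. The difference was 0.21 (SE 0.10, 95% interval -0.02 to 0.44), and between 0.14 and 0.27 with single arrays left out. Acly, which splits exported citrate into acetyl-CoA and oxaloacetate, stood at 9.75, 9.65 and 9.56 in NPFF, against 9.20, 9.76 and 9.55 in control. Its difference was 0.15 (SE 0.14), and -0.00 without control 1. Idh2, the mitochondrial NADP-linked isocitrate dehydrogenase, differed by 0.19 (SE 0.20), and by -0.04 without control 1. The mitochondrial malic enzyme Me2 differed by 0.08 (SE 0.07), and by 0.06 to 0.11 against each control in turn.

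Of the 4 genes through which pyruvate and amino acids enter the cycle, 3 were above 0, with a median of 0.11, and -0.08 without control 1. Against control 2 all 4 were lower in NPFF, with a median of -0.11, and against control 3 all 4 were lower, with a median of -0.06. Pcx, pyruvate carboxylase, which makes oxaloacetate from pyruvate, stood at 6.45, 6.35 and 6.40 in NPFF, against 5.89, 6.57 and 6.49 in control. Its difference was 0.08 (SE 0.18), and -0.13 without control 1. The aspartate aminotransferases Got1, cytosolic, and Got2, mitochondrial, differed by 0.18 (SE 0.20) and 0.13 (SE 0.19), and without control 1 by -0.06 and -0.10. A second, dimmer feature of Got2 differed by -0.07 (SE 0.05), and the mean of both features by 0.03. By feature number, all 20 nearest named features of the dimmer one are genes of chromosome 5, while Got2 lies on chromosome 8. Glud1, glutamate dehydrogenase, stood at 10.65, 10.80 and 10.74 in NPFF, against 10.92, 10.81 and 10.76 in control. NPFF 2 lay between controls 2 and 3. The difference was -0.10 (SE 0.08, 95% interval -0.28 to 0.08), and -0.06 without control 1.

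**Figure D4:**
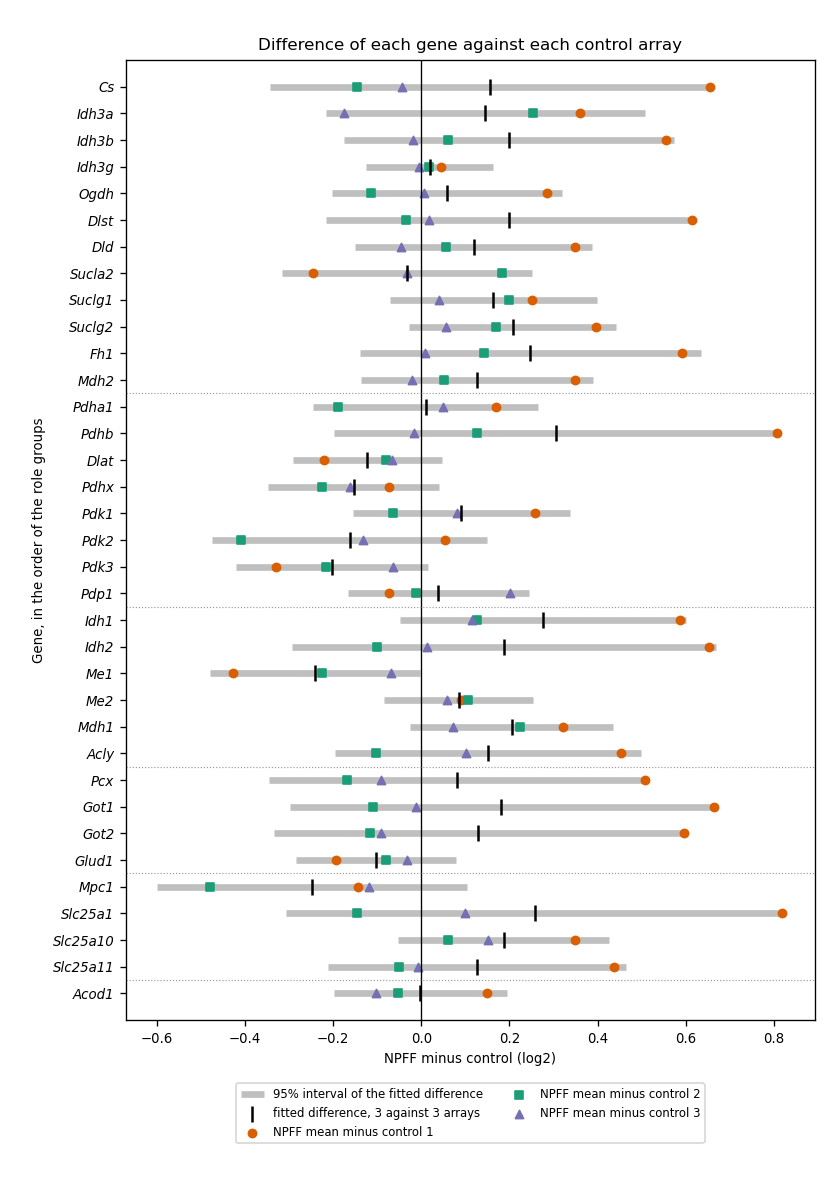
Difference of each of the 35 genes (rows, in role order) on the log2 scale (x axis): the mean of the 3 NPFF arrays minus control 1 (circles), control 2 (squares) and control 3 (triangles), with the fitted difference (tick) and its 95% interval (grey bar). The circles have a median of 0.35, the squares a median of -0.05 and the triangles a median of -0.01.

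Of the mitochondrial carriers, 3 of the 4 measured were above 0, with a median of 0.16, or 0.39 against control 1, -0.10 against control 2 and 0.05 against control 3. Without control 1 the median was -0.03. Slc25a1, the citrate carrier that supplies Acly, stood at 10.44, 10.36 and 10.44 in NPFF, against 9.59, 10.56 and 10.32 in control. The NPFF arrays lay between controls 2 and 3. The difference was 0.26 (SE 0.23, 95% interval -0.31 to 0.82), and -0.02 without control 1. Slc25a10, the dicarboxylate carrier, differed by 0.19 (SE 0.10) and was above each control's level on average, by 0.35, 0.06 and 0.15 for controls 1 to 3. Slc25a11, the 2-oxoglutarate carrier, differed by 0.13 (SE 0.14), and by -0.03 without control 1.

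Mpc1, a subunit of the mitochondrial pyruvate carrier, had the lowest difference of the 35 genes, -0.25 (SE 0.15, 95% interval -0.60 to 0.10), with 10.70, 10.47 and 10.26 in NPFF, against 10.62, 10.96 and 10.59 in control. NPFF 1 lay above controls 1 and 3. This value came from the brighter of 2 features that carry the symbol. The dimmer feature gave 7.15, 7.27 and 7.35 in NPFF, against 6.97, 7.43 and 7.21 in control, a difference of 0.06 (SE 0.13), so the direction depends on the feature. By feature number, all 20 nearest named features of the brighter one are genes of chromosome 12, while Mpc1 lies on chromosome 17, as do all 20 neighbours of the dimmer one. Whether the brighter feature reads a near-identical copy was not tested.

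Acod1, which makes itaconate from cis-aconitate and is strongly induced in inflammatory macrophages, did not separate the groups. It stood at 7.15, 7.13 and 7.14 in NPFF, against 6.99, 7.19 and 7.24 in control. The NPFF arrays were nearly equal and lay between control 1 and the other controls. The difference was -0.00 (SE 0.08, 95% interval -0.20 to 0.19). The feature was at the 60.7th percentile of signal, and the deposited values carry no detection call.

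The other pathway genes examined numbered 40, of which 37 were measured, and the others were not analysed here. Of the 37, 22 were above 0 and 15 below, with a median of 0.03. By limma, 0 passed the threshold and 0 had an unadjusted p under 0.05, against 0% and 2.51% of all genes. The groups did not overlap in 0 of the 37, against 8.58% of all genes. The medians of the 37 were 0.22 against control 1, -0.06 against control 2 and -0.02 against control 3, and control 1 was the lowest array in 25 of them. Sdha, the flavoprotein subunit of succinate dehydrogenase, differed by 0.20 (SE 0.13), and the subunits Sdhb, Sdhc and Sdhd by -0.19 (SE 0.10), -0.07 (SE 0.07) and 0.39 (SE 0.26). For Sdhd the difference was 0.99 against control 1, 0.24 against control 2 and -0.05 against control 3. Pdk4, a fasting-responsive kinase of pyruvate dehydrogenase, differed by -0.04 (SE 0.06) and Ldha, a lactate dehydrogenase subunit, by 0.11 (SE 0.08). Clybl, which takes part in the breakdown of itaconate-derived citramalyl-CoA, differed by -0.10 (SE 0.07).

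Across the 35 genes, the mean of the NPFF arrays was higher than each of the 3 controls in 7 (20%), against 11.9% of all genes. It was lower than each in 6 (17.1%), against 13.2% of all genes, and between them in 22. Leaving out 1 array at a time kept the sign in 21 of the 35. It moved the difference by more than 1.5 times or turned its sign in 32, in 29 of them without control 1, in 18 without control 2 and in 14 without control 3, and in 6, 7 and 7 without NPFF 1, 2 and 3. The exceptions, whose difference stayed within 1.5 times, were Pdhx, Pdk3 and Mdh1.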

How the data were processed

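The deposited table holds 1 value per feature and array for 33794 features. Its log2 intensity scale was read from the values deposited by the authors, which run from 4.59 to 14.0; no source used here states the background correction, the normalization or the genome build. Per the labels, 500 ng of total RNA a sample was biotin-labelled. A platform annotation paired 23521 features with 1 symbol and 1814 with several, and left 8459 unnamed here. Since sorted arrays departed from their mean by up to 0.17 log2, over the allowed 0.05, quantile normalization over all features was applied. The brightest feature of each gene was kept (22180 genes; 1082 had several), and no dim gene was removed. Groups were compared with limma 3.58.1 (R 4.3.3; lmFit and eBayes on group, two-sided, 4 residual and 2.49 prior degrees of freedom), p-values adjusted by Benjamini-Hochberg over the 22180 genes, and called at 0.05. The fit was also run on simulated data, with independent noise of the same spread for a gene in every array. Those data lack the departure of control 1, so they do not test the fit under it. Arrays carry no counts, and 3 a group limit the precision.

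The members and lists were chosen with earlier results of these data known, and the motifs, the signal bins and the promoters shown after the values were seen. Named in full were 12 measured genes fixed by rule, the genes whose groups did not overlap and the largest difference in each direction. The values by array of Idh3g, Suclg1, Fh1, Pdk3 and Mdh1 were added outside this rule, with their values known. The other members are named by role, and Sdhb, Sdhc, Sdhd and Clybl were added after their values were seen. Same-numbered NPFF and control arrays deviated together with r of 0.23, 0.45 and -0.33 over genes, so the numbers were not taken as pairs.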

Additional observations from a re-analysis of the deposited data

How the results depend on the processing

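No gene of the 35, and none of all genes, had an adjusted p under 0.05 in any of the settings tried; the smallest over all genes was 0.0547, with gene-by-gene array weights. By limma, 0 to 5 of the 35 genes had an unadjusted p under 0.05 in the alternatives with several controls. The share of all genes at this p ranged from 1.06% (235 genes, without NPFF 1) to 10.8% (2397 genes, without control 1). The 5 came without control 3, against 4.22% of all genes, and without control 1 there were 2. With all arrays there was 1 of the 35, against 2.51% of all genes (556). The median over the 35 genes was 0.10 to 0.14 with values as deposited, arrays centred on their medians, cyclic loess, the dimmest 25% of genes removed, the mean over a gene's features and the replicate number as a block (0.13 with that block, with 0 of the 35 at an unadjusted p under 0.05). It was 0.01 with array weights, which gave control 1 a weight of 0.121. With single arrays left out it lay between -0.0083 and 0.19, the lowest without control 1, and it was -0.0082 when arrays were normalized again without control 1, an alternative chosen after seeing the data, and -0.012 against control 3 alone. There the cycle enzymes' median was -0.013 and Acod1 differed by -0.10. The number of the 35 genes whose groups did not overlap was 2 with median centring (6.28% of all genes) and 3 with the mean over features (8.48%). It was 8 with cyclic loess (10.3%), 10 after renormalizing without control 1 (27.3%) and 15 against control 3 alone (49.6%). With single arrays left out it was 11 without control 3 (18.8%) or NPFF 3 (16.3%) and 10 without control 1 (27.3%). It was 7 without control 2 (19.3%) or NPFF 1 (13.7%) and 5 without NPFF 2 (13.6%). Fewer arrays by construction overlap less. With single arrays left out, the median ranged from 0.018 to 0.24 for the cycle enzymes, -0.096 to 0.013 for pyruvate dehydrogenase, 0.041 to 0.24 for the NADP-linked and cytosolic enzymes, -0.083 to 0.23 for pyruvate and amino acid entry and -0.026 to 0.23 for the carriers.

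Signs turned as follows. With cyclic loess Pdha1 was at -0.0079. With array weights Cs was at -0.039, Idh3a at -0.049, Ogdh at -0.010, Sucla2 at 0.0028, Pcx at -0.084, Got1 at -0.015, Got2 at -0.072 and Slc25a11 at -0.013. Against control 3 alone Cs was at -0.045, Idh3a at -0.18, Idh3b at -0.019, Idh3g at -0.0058, Dld at -0.046, Mdh2 at -0.022, Pdhb at -0.017, Pcx at -0.092, Got1 at -0.012, Got2 at -0.092 and Slc25a11 at -0.0077. Mpc1 was at 0.055 by its dimmer feature, an alternative chosen after seeing the data. With single arrays left out, Cs ranged from -0.095 to 0.31, Ogdh from -0.054 to 0.14, Dlst from -0.0083 to 0.32, Sucla2 from -0.14 to 0.076, Pdha1 from -0.070 to 0.11, Pdp1 from -0.043 to 0.095, Idh2 from -0.044 to 0.33, Acly from -3.7e-05 to 0.28, Pcx from -0.13 to 0.21, Got1 from -0.061 to 0.33, Got2 from -0.10 to 0.25, Slc25a1 from -0.024 to 0.46, Slc25a11 from -0.029 to 0.21 and Acod1 from -0.077 to 0.048. Apart from the arrays left out, the causes of these turns were not tested.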
